A study of Mus musculus with 12 samples.

Results

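The clustered Hox genes are the 39 symbols in the expression files made of Hox, a cluster letter from a to d and a number, and they were taken as one family out of 24421 genes listed. They fall into 11 Hoxa genes on chromosome 6, 10 Hoxb genes on chromosome 11, 9 Hoxc genes on chromosome 15 and 9 Hoxd genes on chromosome 2. RNA was sequenced from prostate tissue of C57BL/6 mice and of mice of the strain C57BL/6-Tg(TRAMP)8247Ng/J, called TRAMP, in which the probasin promoter drives SV40 T antigen in prostate epithelium and tumors form. All mice ate the AIN93M diet, alone (control) or, in some TRAMP mice, with 0.05% by weight of phenethyl isothiocyanate (PEITC), which cruciferous vegetables release. TRAMP control prostates numbered 2 at 24 weeks and 2 at 16 weeks, and TRAMP PEITC prostates 2 at each age. Wild type mice on the control diet gave 2 prostates at 24 weeks and 1 at 16 weeks. These 11 libraries hold ventral and dorsolateral prostate together. The remaining library is a tumor of a TRAMP mouse on the control diet at 24 weeks, whose lobe of origin the labels give as unknown. The labels do not say how many animals went into a library or that the libraries of a group came from separate mice, so p-values measure only the spread between these libraries.

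Hox genes encode homeodomain transcription factors that give cells along the body axis their position. Within each cluster, genes of low number are used in the head and chest and genes of high number in the lower body, and the urogenital tract from which the prostate buds uses the paralog groups at the high end. Hoxb13 is a marker of prostate epithelium, Hoxd13 and Hoxa13 are needed for the growth of the prostate and other accessory glands, and Hoxa10 and Hoxa11 pattern the genital ducts. The question put to the data was how the family is expressed in the 11 prostates and whether the tumor of unknown lobe keeps that pattern.

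Values are FPKM, fragments scaled to gene length and to library size, as deposited, and changes are differences of log2(FPKM + 1), which understate changes of low genes. Relative depth, read from the spacing of the lowest values, ran from 0.635 to 1 of the deepest library. The replicates correlated at 0.994 to 0.996 over all genes (log2 scale), and no pair of libraries held the same values. Markers of the tissue were present in all libraries, with Sbp, a ventral secretory protein, at 2042 to 4166 FPKM in the 8 TRAMP prostates, 14196 to 16412 in the 3 wild type ones and 697 in the tumor. A pair of libraries stood apart by markers of other cells. In the 16-week wild type library, 7 seminal vesicle genes summed to 7816 FPKM against at most 8.02 in any other library, and 5 vas deferens and epididymis genes to 51.03 against at most 7.45. Of the latter, Defb42 gave 42.0 FPKM and Crisp1 4.76, while Lcn5 and Lcn8 were at 0 and Adam28, at 4.25, was within the range of the others. This library was also highest for Tgm4, an anterior and dorsal marker (468 FPKM against at most 28.1), and for 5 skeletal muscle genes (82.5 against at most 34.4). In replicate 1 of TRAMP PEITC at 24 weeks, 6 neuroendocrine genes summed to 34.6 FPKM against at most 6.25 elsewhere.

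Hoxb13 dominated the family in every library. In wild type prostates its level was 528 and 585 FPKM at 24 weeks and 496 at 16 weeks, in the 8 TRAMP prostates it ranged from 424 to 510 around a median of 444, and in the tumor it was 261. The tumor was the lowest of the 12 libraries, and the TRAMP and wild type prostates overlapped at 16 weeks. Hoxb13 made up 81.7% to 93.0% of the summed FPKM of the 39 genes in the prostates and 77.6% in the tumor. Hoxa10 was second in all 12 libraries at 8.84 to 27.5 FPKM, and Hoxa13 followed in 10 of the 11 prostates. Because FPKM is per length of gene, these levels can be ranked between genes. From 8 to 13 Hox genes reached 1 FPKM in a TRAMP prostate, 16 to 22 in a wild type prostate and 11 in the tumor.

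**Figure D1:**
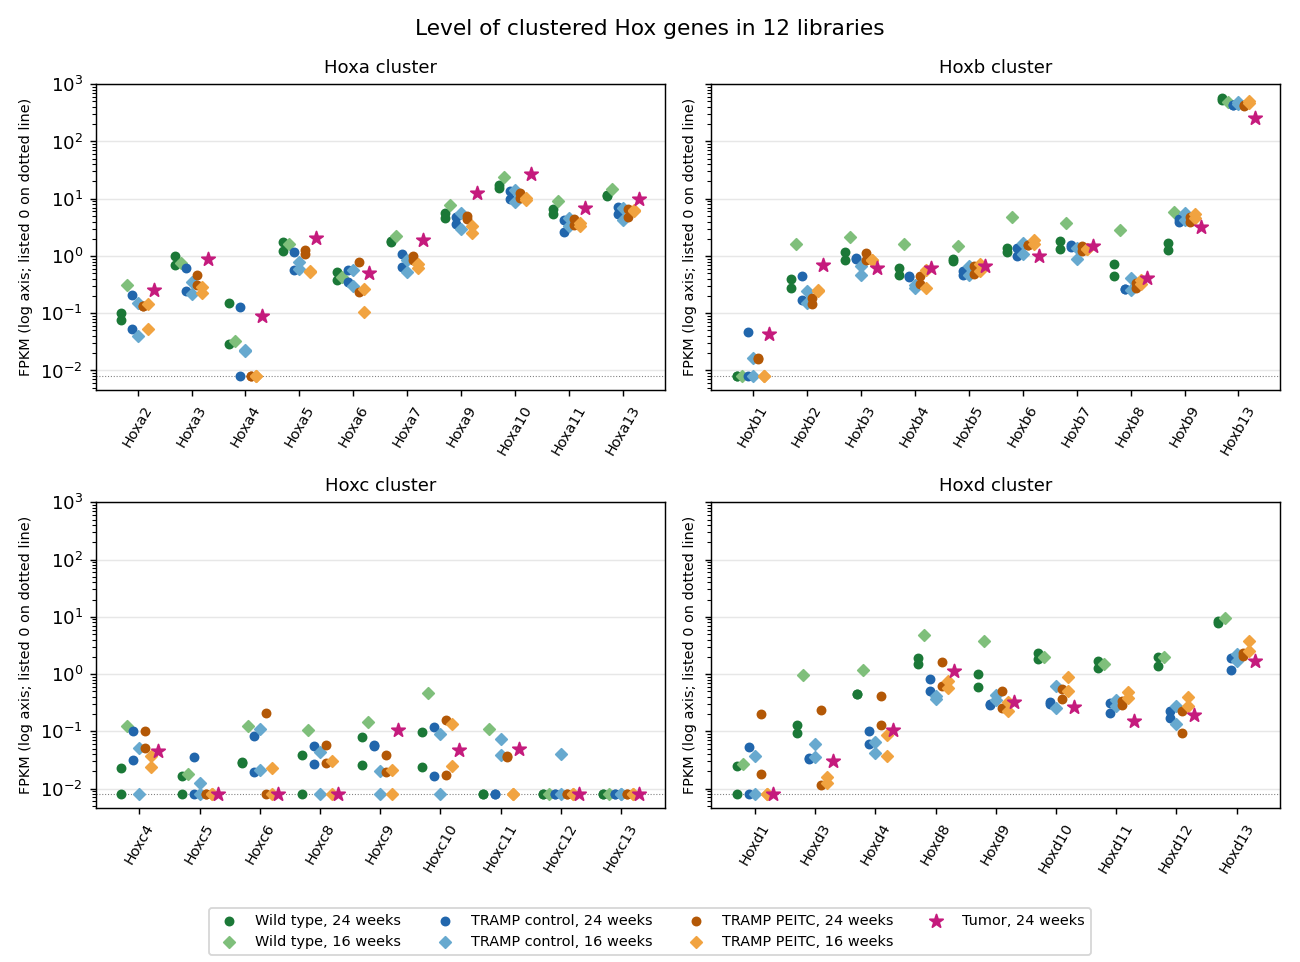
FPKM (log axis) of Hox genes by cluster, 1 point per library, with values listed at 0 drawn on the dotted line. Hoxb13 sits between 261 and 585 FPKM while the Hoxc genes stay under 0.5, and the 16-week wild type library lies above the others for Hoxb2 to Hoxb8.

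The Hoxc cluster was close to silent in all 12 libraries. Its 9 genes summed to 0.0482 to 1.08 FPKM, at most 0.179% of the family, and none of them passed the filter for testing, a mean of 0.5 FPKM over the 12 libraries. For the 7 Hoxc genes whose values could be read as whole fragments, within 0.019 of a whole number, the counts per library were 0 to 10. Hoxc13 was listed at 0 in every library. Hoxc10 was highest at 0.463 FPKM in the 16-week wild type library and at most 0.159 elsewhere. In total 21 Hox genes passed the filter, 7 of Hoxa, 8 of Hoxb and 6 of Hoxd. The other 9 besides Hoxc, among them Hoxa2, Hoxa6, Hoxb1, Hoxb2, Hoxd3 and Hoxd4, had means from 0.0116 to 0.42 FPKM. Of the 21 tested, 7 (Hoxa3, Hoxb4, Hoxb8 and Hoxd9 to Hoxd12) had a mean under 0.5 FPKM in the TRAMP prostates and passed only with the wild type libraries. Of these, 5 passed only with the 16-week one, and Hoxa3 (mean 0.504) also needed the tumor, at 0.898 FPKM, to pass. Counts, medians and tests over or within these 7 are descriptions, since they entered through the groups where they are high.

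Comparison of TRAMP control with wild type prostates at 24 weeks showed lower Hoxd genes. In limma's moderated test across 13375 genes, 10 of the 21 Hox genes were lower and 1, Hoxb9, was higher at an adjusted p under 0.05. The background was 45% of all tested genes called, 22% lower and 23% higher. The median change over the 21 was -0.42 on the log2 scale, and over all tested genes -0.00. Without TRAMP control replicate 0 the count was 6 in place of 11, and without either wild type library it was 7. All 6 tested Hoxd genes were lower, with a median of -1.06, as were 3 of 7 Hoxa and 1 of 8 Hoxb genes. Of these 6, Hoxd9 to Hoxd12 passed the filter only with the wild type libraries, so this count is partly set by the filter, and at a filter of 2 FPKM Hoxd13 alone of the cluster was tested.

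Hoxd13 (ENSMUSG00000001819, chr2:74668310-74671599, GRCm38), the last gene of its cluster and a regulator of digit and genital growth, had the largest change of the tested Hox genes at 24 weeks on the log2(FPKM + 1) scale. With a pseudocount of 0.1 Hoxd12 and Hoxd10 changed more (-2.57 and -2.41, against -2.36 for Hoxd13). Its level was 8.41 and 7.91 FPKM in the 24-week wild type prostates and 1.18 and 1.93 in TRAMP controls of that age. At 16 weeks it was 9.46 in the wild type library and 1.66 and 2.27 in TRAMP controls. TRAMP PEITC prostates held 2.09 and 2.29 FPKM at 24 weeks and 2.53 and 3.85 at 16 weeks, and the tumor 1.66. Every TRAMP library, tumor included, was below every wild type one. The change at 24 weeks was -1.86 (SE 0.19, limma adjusted p = 0.000224), and it was -1.83 (SE 0.24, limma adjusted p = 0.00112) at 16 weeks, or -1.64 with the 24-week wild type libraries as control.

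Its neighbours toward the middle of the cluster shared this split. Hoxd12 was at 1.96 and 1.39 FPKM in 24-week wild type prostates, 1.96 in the 16-week one, 0.0918 to 0.390 in the 8 TRAMP prostates and 0.194 in the tumor. Hoxd11 was at 1.67, 1.26 and 1.51 FPKM in those wild type libraries, against 0.208 to 0.496 in the TRAMP prostates and 0.149 in the tumor. Hoxd10 was at 2.36, 1.85 and 1.996 FPKM against 0.256 to 0.871 and 0.266. No TRAMP value of these genes reached a wild type one, and the wild type libraries of both ages were alike in level. The changes at 24 weeks were -1.15 for Hoxd12, -0.96 for Hoxd11 and -1.24 for Hoxd10 (SE 0.13 to 0.18), with limma adjusted p from 0.000585 to 0.000971. Their means in the TRAMP prostates, 0.223 to 0.475 FPKM, are under the filter, which they passed only with the wild type libraries (Hoxd12 only with the 16-week one). Fitted without a filter, the limma adjusted p of Hoxd12, Hoxd11 and Hoxd10 were 0.00104, 0.000775 and 0.00259.

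**Figure D2:**
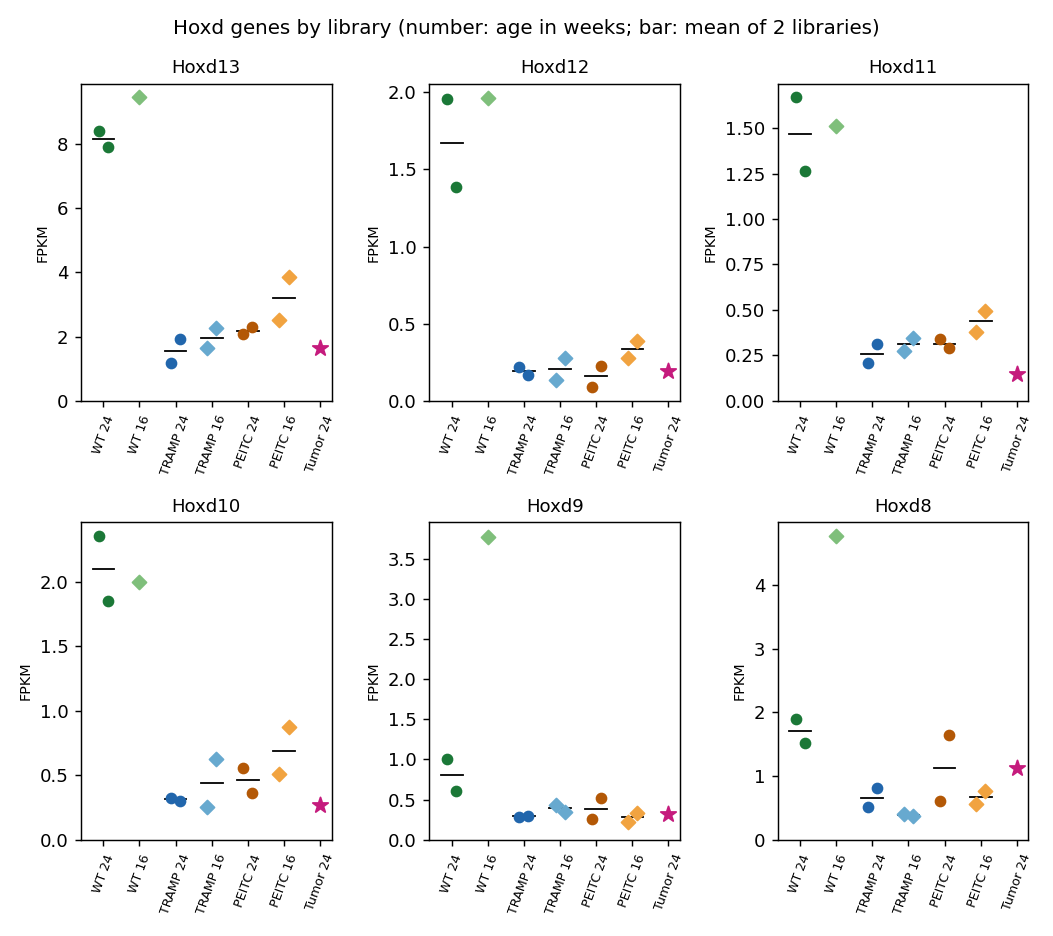
FPKM of 6 Hoxd genes in each library by group, with bars at the mean of 2 libraries. Hoxd13 to Hoxd10 are high in all 3 wild type libraries (7.91 to 9.46 for Hoxd13) and low in TRAMP prostates and tumor, while Hoxd9 and Hoxd8 peak in the single 16-week wild type library.

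Because the 4 genes Hoxd13 to Hoxd10 moved together, the 250 bases before their start sites are shown, from RefSeq on GRCm38.p6, 5′ to 3′ on the gene's strand. Capitals mark the letters CCAAT, or ATTGG for the other strand, the box bound by NF-Y.
Hoxd13, chr2:74667975-74668224, plus strand: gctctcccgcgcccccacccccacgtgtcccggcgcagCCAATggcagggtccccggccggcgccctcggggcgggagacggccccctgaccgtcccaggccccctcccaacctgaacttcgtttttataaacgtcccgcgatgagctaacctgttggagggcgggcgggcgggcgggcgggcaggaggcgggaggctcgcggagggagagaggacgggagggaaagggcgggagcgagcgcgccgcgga
Hoxd12, chr2:74674763-74675012, plus strand: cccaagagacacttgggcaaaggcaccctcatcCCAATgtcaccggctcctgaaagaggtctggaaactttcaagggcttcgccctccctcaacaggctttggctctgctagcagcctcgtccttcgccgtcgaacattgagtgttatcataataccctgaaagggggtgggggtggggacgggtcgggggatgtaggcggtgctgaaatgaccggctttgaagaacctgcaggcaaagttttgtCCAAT
Hoxd11, chr2:74679308-74679557, plus strand: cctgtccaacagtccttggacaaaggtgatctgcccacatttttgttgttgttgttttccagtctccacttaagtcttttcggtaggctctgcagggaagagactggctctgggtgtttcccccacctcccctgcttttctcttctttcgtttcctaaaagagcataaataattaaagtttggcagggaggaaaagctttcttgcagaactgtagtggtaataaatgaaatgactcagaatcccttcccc
Hoxd10, chr2:74691641-74691890, plus strand: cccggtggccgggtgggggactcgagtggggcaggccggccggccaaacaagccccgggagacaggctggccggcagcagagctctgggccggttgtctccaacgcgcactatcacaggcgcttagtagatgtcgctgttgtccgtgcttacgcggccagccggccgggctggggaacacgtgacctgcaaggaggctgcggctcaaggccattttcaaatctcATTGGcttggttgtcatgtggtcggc
The windows of Hoxd13 and Hoxd10 hold 1 CCAAT each, that of Hoxd12 holds 2 and that of Hoxd11 none. They range from 44.8% GC with 2 CpG dinucleotides (Hoxd11) to 74.4% with 31 (Hoxd13), so the 4 genes share neither base composition nor this box. Over the windows of 250 bases before each RefSeq start, 22 Hox genes matched with 24 starts. CCAAT on either strand was in 14 of these 24 windows and in 33.8% of all 32851. The letters TGATTNAT, bound by Hox and Pbx proteins together, were in 2 (of Hoxa2 and Hoxd11) and in 2.82% of all, and CCAATAAA, which overlaps the CCAAT box, was in 0 and in 1.02% of all.

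Hoxd9 and Hoxd8, nearer the cluster's middle, were lower at 24 weeks too: the values fell by 0.47 (limma adjusted p = 0.0363) and by 0.71 (limma adjusted p = 0.0333) on the log2 scale. Hoxd9 was at 1.01 and 0.601 FPKM in the wild type prostates of 24 weeks and 0.223 to 0.515 in TRAMP prostates, and Hoxd8 at 1.89 and 1.52 against 0.372 to 1.64. The highest TRAMP value of Hoxd8, 1.64, exceeded the lower wild type value and came from replicate 1 of TRAMP PEITC at 24 weeks. Both calls depended on the libraries in the fit. Hoxd8 lost its call without any 1 of the 4 libraries compared (adjusted p 0.0530 to 0.143), and Hoxd9 without either TRAMP control (0.105 and 0.0996) or wild type replicate 0 (0.184). Hoxd9 passed the filter only with the 16-week wild type library, and without a filter its limma adjusted p was 0.0367 and that of Hoxd8 0.0626.

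Hoxa genes of the high end fell less. Hoxa13, needed for growth of the genital tubercle and prostate, was at 11.7 and 11.1 FPKM in wild type prostates of 24 weeks, 14.6 in the 16-week one and 4.26 to 7.23 in the TRAMP prostates, and Hoxa11, a gene of the genital ducts, at 6.54, 5.38 and 9.04 against 2.61 to 4.69. In both genes the groups did not overlap. The changes at 24 weeks were -0.77 for Hoxa13 (limma adjusted p = 0.0209), -0.68 for Hoxa11 (limma adjusted p = 0.028) and -0.61 for Hoxa7 (limma adjusted p = 0.0143). All 3 lost the call without TRAMP control replicate 0 (adjusted p 0.0761 to 0.148) and without either wild type library (0.0541 to 0.132). Hoxa10 was at 17.3, 15.5 and 23.6 FPKM in wild type, with TRAMP prostates at 8.84 to 13.9, again without overlap, but its 24-week change of -0.47 did not pass the test (limma adjusted p = 0.105). Hoxa9 overlapped between genotypes, with wild type at 4.55 to 7.79 FPKM and TRAMP at 2.55 to 5.64. The Hoxa11 model shares 35% of its exon bases with the antisense gene Hoxa11os, and that of Hoxa7 20.4% with Hoxaas3. The counting is not stated to use strand, so reads from each pair cannot be told apart.

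Across all 39 genes, 13 had every one of the 8 TRAMP prostates below every one of the 3 wild type libraries, and none had them all above. Among the 21 tested this was 12, and over all tested genes it was 21.3% below and 23% above. Of the 12, Hoxa3, Hoxb8 and Hoxd9 to Hoxd12 passed the filter only with the wild type libraries, so this count is partly set by the filter. The 13 were Hoxa3, Hoxa7, Hoxa10, Hoxa11, Hoxa13, Hoxb5, Hoxb8, Hoxd4 and Hoxd9 to Hoxd13. Without the 16-week wild type library, 14 genes were below and 1, Hoxb9, above. Among the tested Hox genes these were 13 and 1, and over all tested genes 25.4% were below and 26.2% above. Without replicate 1 of TRAMP PEITC at 24 weeks, 16 genes were below and none above, 14 of them among the tested Hox genes, beside 21.8% and 23.2% of all tested genes.

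The prostates also differed in cell markers, whose part in the Hox differences was not tested. In bulk tissue, fewer cells of a type and less RNA per cell cannot be told apart. The 8 smooth muscle genes summed to 743 to 885 FPKM for wild type, 288 to 652 for TRAMP and 283 for the tumor, and at 24 weeks 6 of the 8 were lower in TRAMP and none higher by limma. The 5 basal cell genes summed to 108 to 137 FPKM in wild type, with TRAMP prostates at 26.96 to 49.5, all 5 lower at 24 weeks. The 6 luminal genes, at 2157 to 2366 FPKM in TRAMP and 2201 to 2559 in wild type prostates, overlapped, and 8 fibroblast genes did too, at 89.5 to 265 and 148 to 205. Of the immune genes, the macrophage sum and the T and NK cell sum were higher in TRAMP without overlap. The 4 B and plasma cell genes overlapped, at 2.74 to 14.4 FPKM in TRAMP and 2.99 to 5.93 in wild type. The 6 macrophage genes summed to 49.2 to 60.3 FPKM in wild type and 81.8 to 267 in TRAMP, and the 6 T and NK cell genes to 7.32 to 12.6 and 37.1 to 62.1. At 24 weeks 5 of 6 macrophage, 3 of 5 T and NK cell and 2 of 2 B and plasma cell genes tested were higher by limma. For all of these marker counts the background at 24 weeks was 23% of tested genes higher and 22% lower. Among TRAMP prostates, replicate 1 of PEITC at 16 weeks had the highest smooth muscle sum, 652 FPKM against at most 350 in the other 7. It was also the highest for Hoxd13, Hoxd12, Hoxd11 and Hoxd10, at 3.85, 0.390, 0.496 and 0.871 FPKM, though still below each wild type library for these genes.

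Hoxb13 fell at 24 weeks by 0.36 on the log2 scale (SE 0.07, limma adjusted p = 0.00469), but quantile normalization turned this to 0.05 (limma adjusted p = 0.688). At 16 weeks its change was -0.08 (limma adjusted p = 0.514). The rest of the Hoxb cluster from Hoxb3 to Hoxb8 changed by -0.33 to -0.04 at 24 weeks, and none passed.

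Hoxb9 moved the other way. This gene (ENSMUSG00000020875, chr11:96271457-96276595), a regulator of rib and mammary patterning, was at 1.29 and 1.70 FPKM in the 24-week wild type prostates, 3.86 to 5.62 in all 8 TRAMP prostates and 3.17 in the tumor. The 16-week wild type library was the highest of all at 5.78. At 24 weeks the change was 1.04 (SE 0.16, limma adjusted p = 0.00133), and it stayed past the threshold under all 13 alternatives, at 0.49 to 1.41. At 16 weeks it was -0.20 (limma adjusted p = 0.457), and against the 24-week wild type libraries instead it was 1.25 (limma adjusted p = 0.000552), so the direction at that age rests on the 1 wild type library.

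The stretch between Hoxb13 and Hoxb9 also holds the long noncoding gene Gm53 (chr11:96251105-96264868) and the miRNA gene Mir196a-1 (chr11:96265164-96265265), all on the plus strand. Mir196a-1 was on a list of transcripts of the clusters, and Gm53 was picked after its values were seen. Mir196a-1 encodes a miRNA known to act on Hox messages, Hoxb8 among them. Its mature form shares the seed, bases 2 to 8, with that of Mir196b in the Hoxa cluster, so both are shown from RefSeq with the seed in capitals.
mmu-miR-196a-5p: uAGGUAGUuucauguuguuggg
mmu-miR-196b-5p: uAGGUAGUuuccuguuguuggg
The values below are fragments at the hairpin genes in a total RNA library and not amounts of the mature miRNA. Mir196a-1 was at 10.8 and 12.4 FPKM in 24-week wild type prostates, 27.03 in the 16-week one, 54.6 to 86.5 in the 8 TRAMP prostates and 51.3 in the tumor. Gm53 was at 11.1 and 10.7 FPKM, 21.2, 46.8 to 63.4 and 33.1 in the same libraries. In both, all TRAMP libraries were above all wild type ones. The changes at 24 weeks were 2.45 for Mir196a-1 (SE 0.11, limma adjusted p = 4.95e-06) and 2.11 for Gm53 (SE 0.07, limma adjusted p = 2.715e-06), and at 16 weeks 1.15 and 1.20, or 2.31 and 2.10 with the 24-week wild type libraries as control. So along this cluster Hoxb13 was slightly lower in TRAMP at 24 weeks, the 3 transcripts next to it (Gm53, Mir196a-1 and Hoxb9) were higher, and Hoxb8 was at 0.451 and 0.733 FPKM in wild type against 0.255 to 0.410 in the TRAMP prostates. The change of Hoxb8 was -0.33 (limma adjusted p = 0.0716). Mir196b, whose bases lie within the Hoxa9 model, was at 15.9 to 26.6 FPKM in wild type, while TRAMP prostates held 9.05 to 18.1 and the tumor 30.5.

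**Figure D3:**
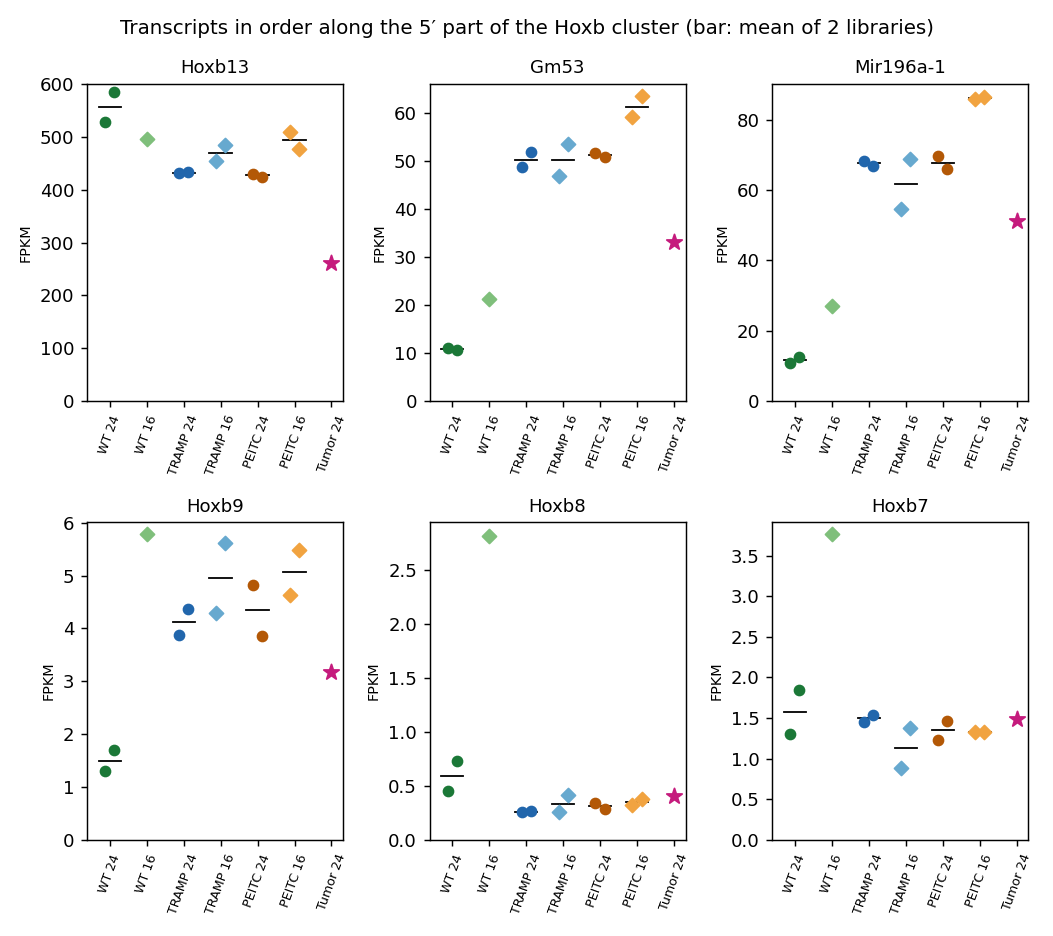
FPKM of 6 transcripts in their order along the Hoxb cluster from Hoxb13 to Hoxb7, 1 point per library, with bars at the mean of 2. Gm53, Mir196a-1 and Hoxb9 are lowest in the 24-week wild type prostates (10.7, 10.8 and 1.29 FPKM at the lowest), and the 16-week wild type library is high for Hoxb9, Hoxb8 and Hoxb7.

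At 16 weeks, 16 of the 21 Hox genes were lower in TRAMP control than in the single wild type library and none was higher, against a background of 33.6% called and 15.4% lower. Among the 16, Hoxb4, Hoxb8 and Hoxd9 to Hoxd12 passed the filter only with the wild type libraries, so the count is partly set by the filter. This count rested on a library that held transcripts of neighbouring ducts. The 16-week wild type library lay above the range of the other 10 prostates for 16 of the 21 Hox genes, while 29.5% of all tested genes lay outside in either direction. Hoxb6 was at 4.84 FPKM there against 1.02 to 1.88 in the other prostates, Hoxb8 at 2.81 against 0.255 to 0.733, Hoxd9 at 3.78 against 0.223 to 1.01 and Hoxd8 at 4.77 against 0.372 to 1.89. With the 24-week wild type libraries as control, 11 Hox genes were called, with the share of all tested genes for that control not given here. Of these calls 7 were shared with the 16, namely Hoxd8, Hoxd10 to Hoxd13, Hoxa7 and Hoxa13. The calls of Hoxb3 to Hoxb8, Hoxd9, Hoxa10 and Hoxa11 were lost, and the change of Hoxb6 turned from -1.31 to 0.05. Averaged over both ages, 1 gene was higher and 19 lower, against 52.7% called and 25.9% lower. The 19 include all 7 genes that passed the filter only with the wild type libraries. With the 24-week controls alone, 13 were called, and the lost ones included Hoxb3 to Hoxb8.

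The difference between the TRAMP effects of the 2 ages passed limma's test for none of the 21 Hox genes, with 0.366% of all genes called (0.0374% lower). At an unadjusted p under 0.05 there were 9 (background 15.8%), of which Hoxb3, Hoxb4, Hoxb6 to Hoxb9, Hoxd8 and Hoxd9 were more positive at 24 weeks and Hoxb13 more negative. A pseudocount of 5 gave 3 calls (Hoxb6, Hoxb8 and Hoxd9) and the test without a filter 4, of which Hoxb8 and Hoxd9 are among the 21. In Hoxb6, Hoxb8 and Hoxd9 the 16-week wild type library was the highest of the 12.

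No Hox gene passed the test between PEITC and control diet. At 24 weeks 0 of 21 passed (background 0%), also without the library with neuroendocrine transcripts, and 0 had an unadjusted p under 0.05 (background 9.47%). At 16 weeks 0 passed (background 0.00748%), and only Hoxd13 had an unadjusted p under 0.05 (background 10.1%). Averaged over both ages 0 passed (background 0%), again with Hoxd13 alone at an unadjusted p under 0.05 (background 6.65%). Hoxd13 was higher under PEITC by 0.33 at 24 weeks (SE 0.19) and by 0.49 at 16 weeks (SE 0.19, limma adjusted p = 0.461), and the largest fall at 16 weeks was that of Hoxa9, by 0.40. The 24-week value of Hoxd8, 0.32, was -0.03 without replicate 1 of PEITC. The 2 PEITC values of Hoxd13 were above both control values at each age, and at 16 weeks the higher came from the library rich in smooth muscle markers. The PEITC effect differed between the ages for 0 of 21 genes (background 0.00748%), and for 0 at an unadjusted p under 0.05 (background 12.9%). TRAMP controls of 24 and 16 weeks differed in 0 of 21 (background 0.00748%) and in 0 at an unadjusted p under 0.05 (background 16.9%), with changes from -0.22 for Hoxd13 to 0.28 for Hoxb3. PEITC and control contrasts share the TRAMP control libraries with the comparisons above.

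Replicate 1 of TRAMP PEITC at 24 weeks, the library with neuroendocrine transcripts, held the highest value among the 8 TRAMP prostates for 12 of the 38 Hox genes detected in any of them. Among the 12 were Hoxd8 at 1.64 FPKM (next 0.809), Hoxd4 at 0.409 (next 0.130) and Hoxd3 at 0.233 (next 0.0602). Hoxc6 at 0.212 (next 0.110) and Hoxd1 at 0.1996 (next 0.0531) were also among them. The Hoxc6 and Hoxd1 values of this library amount to 10 and 11 fragments. Hoxd3 and Hoxd4 share 388 exon bases, and reads there cannot be assigned to one of them with certainty. The neuroendocrine markers and these Hox values moved together in 1 library, and their relation was not tested. Replicate 2 of TRAMP control at 24 weeks, with a neuroendocrine sum of 1.51 FPKM, held the highest value for 10 Hox genes. The same counts were not made over all tested genes, so both are descriptions.

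The tumor kept Hoxb13 and Hoxa10 as its leading Hox genes, while Hoxa9 stood above Hoxa13, which was so in no prostate. Over the 39 genes its Spearman correlation with the median of the prostates was 0.936. Each TRAMP prostate correlated with the median of the other prostates at 0.939 to 0.982, all above the tumor, and the wild type ones at 0.914 to 0.942. Its root mean square distance from the prostate median was 0.39 log2 units, between the 8 TRAMP prostates (0.09 to 0.21) and the 3 wild type ones (0.44 to 0.84). Over all tested genes the distances were 0.54 for the tumor, 0.17 to 0.29 for TRAMP and 0.60 to 0.64 for wild type prostates. As 8 of the 11 prostates in the median are TRAMP, a short distance of TRAMP libraries and a long one of wild type libraries is built into this measure. Without Hoxb13 the tumor's distance was 0.37, and with a pseudocount of 0.1 on all 39 genes it was 0.62.

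**Figure D4:**
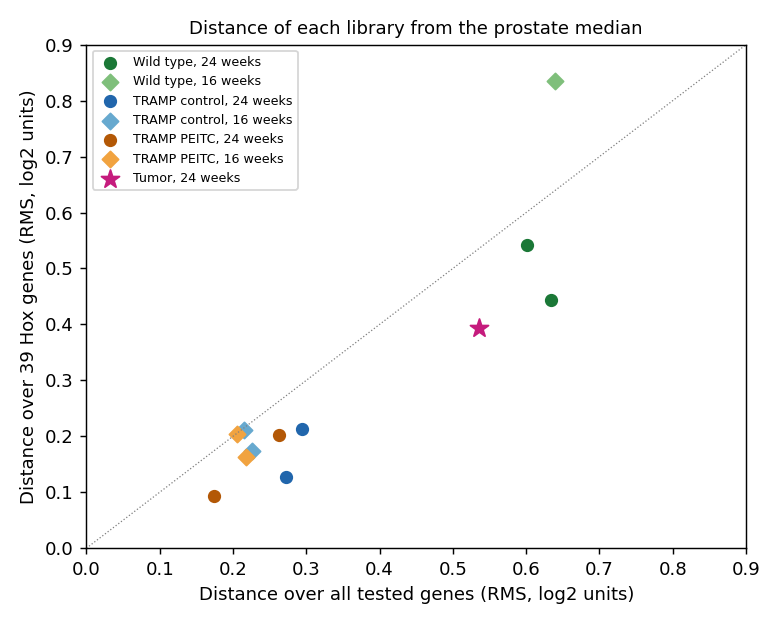
Root mean square distance of each library from the median of the other prostates over the 39 Hox genes (y axis) and over all tested genes (x axis), in log2 units, 1 point per library. The tumor (0.54, 0.39) lies between the TRAMP prostates near the origin and the wild type ones, and the 16-week wild type library has the greatest Hox distance, 0.84.

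Against TRAMP control prostates of 24 weeks, the tumor was higher in Hoxa9 and Hoxa10 and lower in Hoxb13, with 11.8% of all tested genes called, 5.59% higher and 6.17% lower. At an unadjusted p under 0.05 there were 6 of 21, against 28.5% of all. Hoxb13 was 261 FPKM in the tumor and 431 and 433 in the controls, a change of -0.73 (SE 0.09, limma adjusted p = 0.00454). Hoxa9 was 12.6 FPKM against 3.59 and 4.88, a change of 1.39 (SE 0.30, limma adjusted p = 0.0244). Hoxa10 was 27.5 FPKM against 9.76 and 13.6, a change of 1.18 (SE 0.26, limma adjusted p = 0.0265). The tumor was above all 11 prostates for both Hoxa genes, also above the 16-week wild type library at 7.79 and 23.6, and below all of them for Hoxb13. As the tumor is 1 library, these tests assume that it varies like the groups with 2. Hoxa9 and Hoxa10 lost their calls without TRAMP control replicate 0, without a filter and in a fit of only the 2 groups. That last fit called no tested gene at all, so the loss there, which Hoxb13 shared, is not particular to these genes. Without replicate 2, 6 Hox genes were called instead of 3, the added ones being Hoxa5, Hoxa7 and Hoxa11.

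Hoxa9 and Hoxa10 are adjacent posterior genes, active in blood stem cells and in the genital ducts respectively, and their upstream windows of 250 bases (RefSeq, GRCm38.p6, 5′ to 3′ on the gene's strand) are shown because they rose together in the tumor.
Hoxa10, chr6:52240855-52241104, minus strand: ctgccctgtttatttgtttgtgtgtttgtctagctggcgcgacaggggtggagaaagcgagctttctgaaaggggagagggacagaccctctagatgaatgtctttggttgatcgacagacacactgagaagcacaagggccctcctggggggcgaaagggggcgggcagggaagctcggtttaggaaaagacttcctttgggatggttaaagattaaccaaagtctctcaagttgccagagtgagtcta
Hoxa9, chr6:52227371-52227620, minus strand: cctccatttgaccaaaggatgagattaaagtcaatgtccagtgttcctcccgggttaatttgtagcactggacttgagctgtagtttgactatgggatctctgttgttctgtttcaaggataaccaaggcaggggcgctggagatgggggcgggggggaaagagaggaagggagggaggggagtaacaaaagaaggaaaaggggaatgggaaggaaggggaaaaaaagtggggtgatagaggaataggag
Neither of these upstream stretches holds CCAAT on either strand, though Hoxa10 is among the genes with CCAAT in the 250 bases before another of its starts. The other tested Hoxa genes of the tumor were higher too by value, none of them passing: Hoxa3 by 0.42, Hoxa5 by 0.71, Hoxa7 by 0.65, Hoxa11 by 0.87 and Hoxa13 by 0.60 (limma adjusted p 0.0634 to 0.204). Among these, Hoxa3 would not have reached the filter without the tumor. Hoxa genes made up 18.7% of the summed Hox FPKM of the tumor and 4.06% to 9.96% in prostates. That total was 336 FPKM in the tumor and 466 to 649 in prostates. The Hoxa sum was 62.8 FPKM in the tumor, 21.2 to 34.0 in TRAMP prostates, 40.7 and 46.7 in 24-week wild type prostates and 60.5 in the 16-week one. Against 24-week wild type prostates Hoxa3, Hoxa5, Hoxa7, Hoxa11 and Hoxa13 changed by 0.04, 0.29, 0.04, 0.19 and -0.17, none of them passing. The level of Hoxa10 as a percentage of that of Hoxb13 was 10.5 in the tumor and 1.83 to 4.77 in prostates. Mir196b, within the Hoxa9 model, rose by 1.18 (limma adjusted p = 0.0382), a call lost without TRAMP control replicate 0 (0.113).

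In the Hoxd genes the tumor resembled the TRAMP prostates in level. Hoxd13, at 1.66 FPKM, lay within their range of 1.18 to 3.85, and so did Hoxd12, Hoxd10, Hoxd9 and Hoxd8, while Hoxd11, at 0.149, was below their lowest of 0.208. The 6 tested Hoxd genes changed by -0.13 to 0.36 against TRAMP controls and none passed. Relative to 24-week wild type prostates, Hoxd13 fell by 1.78, Hoxd10 by 1.29, Hoxd12 by 1.15 and Hoxd11 by 1.10 on the log2 scale (limma adjusted p 0.000532 to 0.00163). In that comparison 5 Hox genes were lower and 3 higher, with 52.2% of all genes called, 25.8% lower and 26.4% higher. Of the 5, Hoxd10 to Hoxd12 passed the filter only with the wild type libraries, so this count is partly set by the filter. Both tumor comparisons share the tumor library, and each shares controls with the comparison of TRAMP and wild type. The fifth lower gene was Hoxb13, by 1.09, and the higher ones were Hoxa9 (1.16), Hoxb9 (0.74) and Hoxa10 (0.71, limma adjusted p = 0.0485), which passed under 10, 9 and 5 of 11 alternatives. Hoxa9 lost its call without wild type replicate 1 (0.056), and Hoxb9 without wild type replicate 0 (0.0518) and under quantile normalization (0.113). The ratio of Hoxa13 to Hoxd13 was 6.04 in the tumor, against 1.60 to 4.57 for TRAMP and 1.40 to 1.54 for wild type prostates.

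Measured against the range of the 11 prostates, the tumor lay above it for 3 of the 39 Hox genes (Hoxa5, Hoxa9 and Hoxa10) and below it for 3 (Hoxb6, Hoxb13 and Hoxd11). All 6 are among the 21 tested, a share of 28.6%, while 43.7% of all tested genes lay outside (20.3% above and 23.4% below). Without the 16-week wild type library, 9 were above and 3 below, with 38.1% of the tested Hox genes and 46.1% of all tested genes outside. Among the added ones were Hoxa2, Hoxa7, Hoxa11, Hoxb2 and Hoxc9. Hoxa5 was at 2.03 FPKM in the tumor against at most 1.79 in a prostate, and Hoxb6 at 0.982 against at least 1.02, differences smaller than the spread among the prostates.

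**Figure D5:**
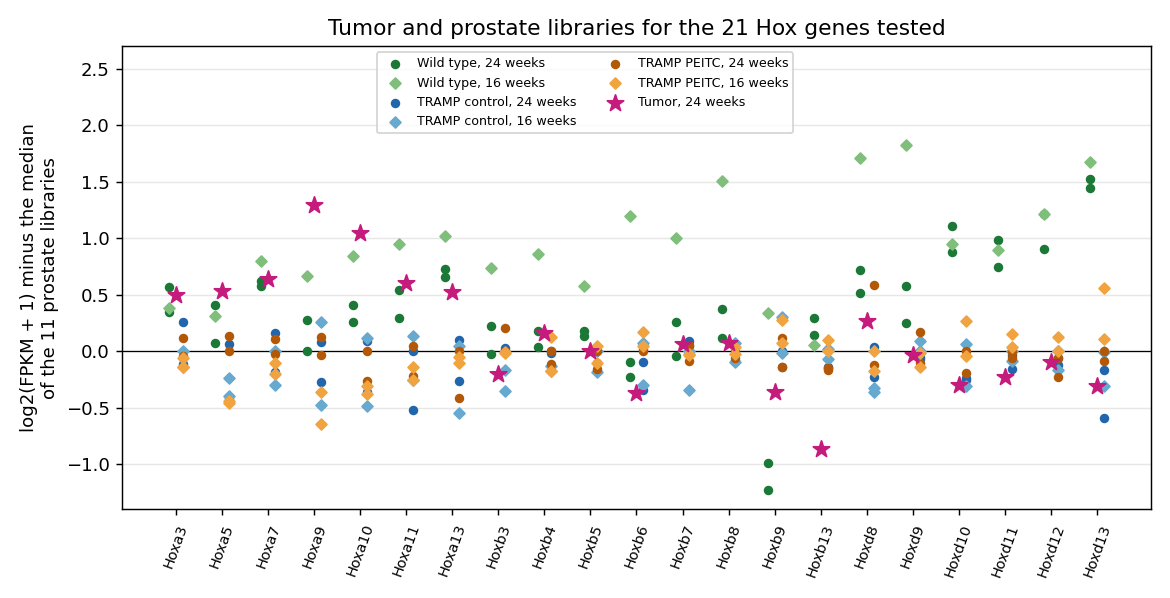
log2(FPKM + 1) of each library minus the median of the 11 prostates for the 21 tested Hox genes, 1 point per library, the tumor as a star. The star is outside the prostates for Hoxa5, Hoxa9, Hoxa10, Hoxb6, Hoxb13 and Hoxd11, and within or near the TRAMP prostates for the other Hoxd genes.

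The tumor also differed in markers of lobes and cells, whose part in its Hox values was not tested. The 3 ventral secretory genes summed to 886 FPKM against 2786 to 5786 in TRAMP prostates. All 3 fell against TRAMP controls, where 6.17% of all tested genes were lower. The pair of dorsolateral genes, Pbsn and Msmb, summed to 1181 FPKM in the tumor, within the TRAMP range of 345 to 1310. Most of this sum was Msmb, at 1041 FPKM, within its TRAMP range of 329 to 1231. Pbsn, at 139.9 FPKM, was above all TRAMP prostates (15.5 to 107) and below the wild type ones (664 to 1835). Endothelial genes summed to 23.8 FPKM against at most 12.4 in a prostate, with 2 of 6 higher by limma, beside 5.59% of all tested genes. The sum of the luminal genes, 2749 FPKM, was above all prostates (at most 2559). Of these genes only Krt8, at 614 FPKM against at most 418, was above the prostates, and the others lay within their range. Neuroendocrine genes, at 1.56, were within the range of the prostates.

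Hox proteins bind DNA with homeodomain partners of the Pbx, Meis and Pknox families. Of 12 such genes, all tested, 3 rose and 4 fell in TRAMP at 24 weeks, where 23% of all tested genes rose and 22% fell. Pbx3 rose from 0.515 and 0.426 FPKM in wild type to 1.84 and 2.06 in TRAMP controls (1.003, limma adjusted p = 0.0004). Pknox2 fell from 38.5 and 42.4 to 23.1 and 19.8 FPKM (-0.89, limma adjusted p = 0.000202), and Meis2 from 3.39 and 3.35 to 1.22 and 1.61 (-0.86, limma adjusted p = 0.00229). Meis1, a partner of Hoxa9, was at 18.8 to 25.7 FPKM in all 12 libraries, and its change of -0.14 did not pass (limma adjusted p = 0.276). None of the 12 passed between tumor and TRAMP controls (background 11.8%), with 2 at an unadjusted p under 0.05 (background 28.5%).

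Polycomb proteins keep Hox genes silent and trithorax proteins keep them active. Of 23 Polycomb genes, 7 rose and 6 fell at 24 weeks, and of 15 trithorax genes and H3K27 demethylases 5 rose and none fell, beside 23% and 22% of all tested genes. Ezh2, the H3K27 methyltransferase, was at 10.7 and 9.38 FPKM in wild type and 29.8 and 29.4 in TRAMP controls, a rise of 1.47 (limma adjusted p = 2.426e-05). Cbx2, a reader of that mark, rose by 0.72, and Phf19, a Polycomb accessory protein, fell by 1.79, from 21.7 and 40.2 to 7.29 and 8.39 FPKM. The H3K79 methyltransferase gene Dot1l rose by 0.72 and Psip1, a chromatin tether of Kmt2a, by 0.63. Proliferation markers moved with these genes, the 4 of them summing to 13.02 and 13.2 FPKM in wild type and 112 and 107 in TRAMP controls, and their part was not tested. In the tumor 1 Polycomb gene was higher and 1 lower than in TRAMP controls, and no trithorax gene passed (0 at an unadjusted p under 0.05). Of all tested genes 5.59% were higher and 6.17% lower there, and 28.5% had an unadjusted p under 0.05.

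Retinoic acid sets Hox expression in the embryo. Of 20 genes of this pathway and of the Cdx inputs, 11 were tested, and 5 rose and 5 fell in TRAMP at 24 weeks, beside 23% and 22% of all tested genes. The synthesis enzyme Aldh1a1 fell from 272 and 314 FPKM to 89.4 and 106 (-1.58, limma adjusted p = 2.375e-05), and Aldh1a2 rose from 1.12 and 1.17 to 3.26 and 5.69 (1.32, limma adjusted p = 0.0282). The call of Aldh1a2 was lost without TRAMP control replicate 2, without either wild type library and without a filter (0.0668). It was also lost with the replicate block, which in effect leaves out replicate 2 as well. The tumor differed from TRAMP controls in 7 of the 11, with 5 higher and 2 lower, beside 5.59% and 6.17% of all tested genes. Crabp1, a binding protein for retinoic acid, was 9.26 FPKM in the tumor and 85.7 to 195 in the 11 prostates (-3.27, limma adjusted p = 0.00056). Rxrg, a receptor, was 3.33 FPKM against 15.1 to 30.8 (-2.24, limma adjusted p = 0.00056). Stra6, the retinol importer, was 7.66 against 0.543 to 2.49 (2.06, limma adjusted p = 0.00363), and Aldh1a3 16.3 against 1.01 to 4.90 (1.72, limma adjusted p = 0.0244). All 4 calls were lost in a fit of only the 2 groups, where no tested gene at all was called. The call of Aldh1a3 was also lost without TRAMP control replicate 0, without a filter (0.0554), with a pseudocount of 0.1 (0.0567) and with the replicate block. In each of these 4 genes the tumor was outside the range of all prostates.

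Among 27 transcription factors of the prostate and urogenital tract, 18 were tested, and 5 rose and 7 fell in TRAMP at 24 weeks, beside 23% and 22% of all tested genes. In the tumor 2 factors were higher than in TRAMP controls, Sox2 (0.79) and Sox9 (0.51), beside 5.59% of all tested genes. A further 3 were lower, beside 6.17% of all tested genes, among them Foxa1 (-0.47, limma adjusted p = 0.0225), the pioneer factor that binds with Hoxb13. Without TRAMP control replicate 0 Sox2 lost its call (0.139), and without replicate 2 Sox9 and Foxa1 did (0.0504 and 0.0593). Foxa1 was at 162 FPKM in the tumor and 205 to 240 in the prostates.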

How the data were processed

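Total RNA of 12 mouse libraries was extracted from snap-frozen tissue with a Qiagen AllPrep kit and sequenced by Illumina methods, per the labels' protocols. The authors deposited FPKM values per gene for each library. Per the submitters' processing notes, the build was mm10 and HISAT2, Picard, featureCounts and DESeq2 were used, with versions and the gene annotation not given in the sources used here. Total depth is unknown, and relative depth was read from the steps between low values, which limits statements on genes of a few fragments.

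FPKM were taken as deposited. The test took the 13375 of 24421 genes whose average across libraries reached 0.5 FPKM. It used limma 3.58.1 (R 4.3.3) on log2(FPKM + 1) with 1 mean per group, 5 residual degrees of freedom and a prior variance that follows expression. Benjamini-Hochberg adjustment ran over every gene tested, two-sided, with a threshold of 0.05. All groups shared 1 spread, which stands in for groups of 1 library. The steps were checked on simulated data. Alternatives changed the pseudocount, filter, scaling, trend, libraries and wild type control, or added replicate number as a block.

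Positions come from GENCODE (GRCm38, the build named mm10) and sequences from RefSeq (GRCm38.p6). All 39 symbols matched GENCODE. Members could be named, and from the lists of partners and regulators up to 4 called genes per comparison, direct partners such as Meis1 and Meis2 and genes that check a label. Values of some members and listed genes are not reported here. Members and lists were chosen with earlier results of these data known.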

Additional observations from a re-analysis of the deposited data

Results flagged for a closer look

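The TRAMP effect differed between 24 and 16 weeks, by limma's test of the difference, for 4 named transcripts near Hox genes or on the lists. The background was 0.366% of all tested genes. On the marker lists 6 of 6 tested seminal vesicle genes, 1 of 4 skeletal muscle genes and 1 of 2 vas deferens and epididymis genes also passed. For Gm53 the effect was larger at 24 weeks by 0.91 log2 units (limma adjusted p = 0.0241) and for Mir196a-1 by 1.30 (limma adjusted p = 0.0242). For Hotairm1, an antisense transcript of the Hoxa cluster, the difference was 1.45 (limma adjusted p = 0.0334), with 2.34 FPKM in the 16-week wild type library and 0.276 to 1.05 in the other prostates. For Tbx2, a urogenital factor, it was 1.97 (limma adjusted p = 0.00865), with 7.78 FPKM in that library and 0.395 to 1.55 in the other prostates. The 16-week contrast has that 1 wild type library as its control, the one with seminal vesicle transcripts, and their part was not tested. The calls of Gm53 and Mir196a-1 were lost without either 24-week wild type library (limma adjusted p 0.0502 to 0.096), with the replicate block and in a fit of only the groups compared, and that of Mir196a-1 also without TRAMP control replicate 0 of 24 weeks (0.0739).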

How the results depend on the processing

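With a filter at a mean of 2 FPKM, which left 7 Hox genes, the number called was 5 in place of 11 for TRAMP against wild type at 24 weeks, 4 in place of 16 at 16 weeks, 6 in place of 20 for the mean of both ages and 5 in place of 8 for tumor against wild type. The 24-week wild type control gave 13 for the mean of both ages. Leaving out 1 library at a time gave 6 to 11 at 24 weeks and 1 to 6 in place of 3 for tumor against TRAMP. For that comparison a pseudocount of 5 gave 5 calls, no filter 1 and a fit on only the groups compared 0. In that last fit no tested gene of any kind was called. The difference of TRAMP effects between ages had 0 calls, but 3 with a pseudocount of 5, 4 without a filter and 1 without the intensity trend. The tumor lay outside the prostate range for 6 genes, and for 12 without the 16-week wild type library, and its profile distance was 0.39, or 0.62 with a pseudocount of 0.1. The cause of these moves was not tested where the alternative does not itself remove genes or libraries. The number of all tested genes called also varied between the alternatives. As that number is not set beside each count, Hox counts under an alternative, here and elsewhere, do not show a change particular to Hox genes.

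Under quantile normalization Hoxb13 changed by 0.0517 at 24 weeks and by 0.13 for the mean of both ages, where the reported value was -0.22, and Foxa1 by 0.20 for that mean. Against the 24-week wild type control, Hoxb9 at 16 weeks changed by 1.25 and Hoxb6 by 0.0469. Leaving the 50 most abundant genes out of the scaling shifted the median of all genes by about 0.10 in TRAMP against wild type. The share of calls that were higher then went to 66.6% at 24 weeks, 70.3% at 16 weeks and 67.3% for the mean, and to 58.9% for tumor against wild type. Between groups numbered 0 and 1, deviations of same-numbered libraries correlated at r from -0.31 to 0.28. Without libraries of known pairing to compare with, this cannot settle whether the numbers pair samples. TRAMP control at 24 weeks, numbered 0 and 2, was not in this check. As number 2 marks a single library of that group, a block by number absorbs it. For comparisons with that group the block therefore acts much like leaving replicate 2 out. The tumor, whose title gives no number, was put with number 0 in the block. With the replicate number as a block 12 Hox genes were called at 24 weeks, 16 at 16 weeks, 20 for the mean, 4 for tumor against TRAMP and 8 for tumor against wild type. Of the alternatives for single Hox genes past the threshold, 668 kept direction and call, 70 lost the call and 3 reversed. Groups of 2 or 1 libraries and low levels of most Hox genes limit all of these comparisons.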
